A study of Mus musculus with 2 samples.

Results

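The genes described here are 10 enzymes and enzyme subunits that build up or break down glycogen, measured by single nucleus RNA sequencing of mouse epididymal WAT. They were chosen by symbol, after earlier results from the same data had shown Phkg1, Pygl and Gbe1 to differ between the adipocytes of both conditions, and they are 10 of the 32285 genes in the files. Values of the adipocyte comparison are therefore descriptions. The genes are the phosphorylases Pygl, Pygm and Pygb, the phosphorylase kinase subunits Phkg1, Phka1, Phka2 and Phkb, the glycogen synthases Gys1 and Gys2, and the branching enzyme Gbe1, and all 10 symbols were found in both libraries.

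The study tested homoharringtonine (HHT), a drug for leukemia, against senescent cells, obesity and insulin resistance. HHT is an alkaloid of plum yews that stops ribosomes from making protein. The paper proposes that it acts on senescent cells through the chaperone HSPA5 and not through this block. Nuclei were sequenced to find which cells of fat tissue respond to HHT. The mice were C57BL/6 N males, 8 weeks of age when their high-fat (HF) feeding began. After 6 weeks on this diet they stayed on it for 8 more, during which they were injected i.p. 3 times per week with PBS (HF-PBS) or with HHT (HF-HHT). The epididymal fat of 3 mice per group was pooled, and nuclei were stained with DAPI, sorted and run on the 10x Genomics 3' v3.1 assay, which counts unique molecular identifiers (UMIs), 1 for each captured RNA molecule. Each condition was thus 1 library, no value has a replicate check, no test between conditions was possible, and all intervals given below are exact 95% intervals that cover counting error only.

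Glycogen is a branched polymer of glucose. Glycogen synthase lengthens its chains from UDP-glucose and the branching enzyme adds the branch points, while glycogen phosphorylase releases glucose 1-phosphate from the chain ends. Phosphorylase kinase, an assembly of a catalytic gamma subunit with regulatory alpha and beta subunits and calmodulin, switches phosphorylase on in response to cAMP and calcium. Fat cells hold little glycogen compared with liver and muscle, and its turnover in them follows feeding, insulin and adrenergic signals.

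The stretches of 250 bases before the RefSeq start sites of Pygl, Phkg1, Gys1 and Gbe1 are shown, on the gene's strand, because these genes had the largest differences in level among the well-counted members. They are taken from RefSeq on GRCm38.p6, the build of the authors' mm10 reference. Pygl lies at chr12:70227684-70227933 (minus strand), Phkg1 at chr5:129879089-129879338 (minus), Gys1 at chr7:45434589-45434838 (plus) and Gbe1 at chr16:70313699-70313948 (plus). Capitals mark matches, on either strand, to CACGTG (E-box), TGACG (CRE core), AGGTCA (nuclear receptor core), CCAAT and TATAAA.
Pygl: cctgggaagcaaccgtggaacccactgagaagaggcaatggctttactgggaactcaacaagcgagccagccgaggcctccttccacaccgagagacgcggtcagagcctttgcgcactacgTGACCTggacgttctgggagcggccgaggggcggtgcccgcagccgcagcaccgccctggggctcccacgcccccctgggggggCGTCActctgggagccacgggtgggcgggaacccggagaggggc
Phkg1: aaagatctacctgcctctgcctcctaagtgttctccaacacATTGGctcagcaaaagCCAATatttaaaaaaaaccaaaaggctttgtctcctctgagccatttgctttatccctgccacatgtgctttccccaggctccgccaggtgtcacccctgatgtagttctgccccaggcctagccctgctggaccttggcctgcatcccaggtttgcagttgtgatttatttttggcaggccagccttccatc
Gys1: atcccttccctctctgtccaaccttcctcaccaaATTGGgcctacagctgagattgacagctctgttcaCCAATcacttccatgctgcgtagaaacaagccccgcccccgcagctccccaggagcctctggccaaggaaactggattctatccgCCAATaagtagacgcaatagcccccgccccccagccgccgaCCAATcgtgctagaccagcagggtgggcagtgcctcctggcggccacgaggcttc
Gbe1: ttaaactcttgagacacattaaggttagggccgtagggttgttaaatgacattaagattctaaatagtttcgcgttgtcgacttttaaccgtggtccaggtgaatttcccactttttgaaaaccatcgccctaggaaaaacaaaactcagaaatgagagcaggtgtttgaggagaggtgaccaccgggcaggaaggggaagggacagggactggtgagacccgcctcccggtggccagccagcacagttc
The CCAAT motif was found 4 times in the window of Gys1 and 2 times in that of Phkg1, and 33.8% of all 32851 promoter windows hold it. Pygl held 1 CRE core and 1 nuclear receptor core, motifs found in 17.8% and 14% of all windows. Of the 9 members with a window (all except Gys2), 3 held the CRE core, Pygb, Phkb and Pygl, and none held the E-box or TATAAA, which 6.02% and 12.4% of all windows hold. The window of Gbe1 held none of the motifs. These matches are descriptions of letters and not of bound sites.

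The HF-PBS library held 76197757 UMIs and gave 6663 nuclei, and the HF-HHT library held 73313558 UMIs and gave 6442 nuclei; 13 barcodes of kept nuclei were found in both. Nuclei were placed in 13 classes by marker genes. The libraries differed in makeup before any glycogen gene was considered. Adipocyte nuclei numbered 153 in HF-PBS (median 13114 UMIs) and 843 in HF-HHT (median 11562), and B cell nuclei 753 and 59. Duct-like epithelium (689 nuclei) and multiciliated epithelium (121 nuclei) were found in HF-HHT alone. Free RNA, read from nearly empty droplets, made up at most 5.04% of the UMIs of HF-PBS adipocytes and 3.67% of those of HF-HHT adipocytes. The adipocyte class showed 13 of its 14 markers, among them Pparg, the main regulator of fat cell differentiation, at 1841 and 2282 CPM (the UMI counts of a class in a library scaled to a total of 1000000), and Plin1, a lipid droplet coat protein, at 247 and 608 CPM. Other markers were lower in HF-HHT adipocytes, such as Cidec, which acts in the growth of lipid droplets (3214 and 2128 CPM), and Lep, which encodes leptin (566 and 266 CPM).

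In adipocytes, phosphorylase and its kinase showed the largest differences of the 10 genes. Pygl, the liver isoform of phosphorylase, and Phkg1, the muscle isoform of the catalytic subunit of phosphorylase kinase, were higher in HF-HHT, as was Gys1 to a smaller degree, while Gbe1 and Gys2 were lower. Of the 9 members with at least 20 UMIs over both libraries, 5 were at least 1.5-fold higher in HF-HHT, where 35.5% of all 12572 genes measured in adipocytes were, and 2 were at least 1.5-fold lower, where 12.5% of all genes were. The median log2 ratio of CPM, HF-HHT over HF-PBS, was 0.59 over these 9 members and 0.32 over all genes measured. With the libraries scaled by TMM factors instead, which lowered every log2 ratio in adipocytes by 0.20, 3 members were higher and 3 lower. Nothing was read from these counts, since adipocyte values had chosen the genes.

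Among the phosphorylases, Pygl had 42 UMIs in HF-PBS adipocytes and 1896 in HF-HHT adipocytes, which is 21.2 CPM (15.3 to 28.6) and 191 CPM (182 to 200). The HF-HHT level was 9.02-fold that of HF-PBS, a log2 ratio of 3.17 (2.73 to 3.65). Its intervals in the libraries lay far apart, and no single nucleus carried the difference, since the UMIs of HF-HHT came from 641 nuclei with at most 14 in any one. Pygb, the isoform first known from brain, was at 33.3 CPM (25.7 to 42.3) and 28.8 CPM (25.6 to 32.3), intervals that overlapped. Pygm, the muscle isoform, had 0 UMIs in HF-PBS adipocytes, with an upper limit of 1.86 CPM, and 1 UMI in HF-HHT adipocytes. It was not detectable in fat cells at this depth.

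Of the kinase subunits, Phkg1 had 13 UMIs in HF-PBS adipocytes and 1278 in HF-HHT adipocytes, or 6.55 CPM (3.49 to 11.2) and 129 CPM (122 to 136). This was the largest difference among the members, 19.6-fold, a log2 ratio of 4.30 (3.52 to 5.21), and the 1278 UMIs came from 474 nuclei. Phkg2, which encodes the other catalytic subunit, known from liver and testis, was at 21.2 CPM in adipocytes of HF-PBS and 18.5 CPM in those of HF-HHT, a log2 ratio of -0.19 (-0.68 to 0.33). Of the catalytic subunit genes, Phkg1 was thus higher in HF-HHT, while the interval of Phkg2 held 0 and gave no direction.

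One annotated transcript of Phkg1 (chr5:129863421-129898549, minus strand) runs across Chchd2, a gene for a mitochondrial protein on the same strand. How reads in the stretch shared with Chchd2 were counted is not known. The positions are from GENCODE vM21, and the authors' annotation was not at hand. Sumf2 and Zbed5 overlap Phkg1 on the opposite strand. In adipocytes, Chchd2 was at 30.7 CPM without HHT and 35.2 CPM with it, a log2 ratio of 0.20 (-0.20 to 0.61). Sumf2 was at 18.1 and 29.4 CPM, and Zbed5 at 3.53 and 7.55 CPM. The log2 ratios of these neighbours were 0.70 (0.19 to 1.24) and 1.10 (-0.02 to 2.46). Outside adipocytes, Chchd2 was higher in HF-HHT in APCs, the adipocyte precursor cells, at 15.5 and 30.4 CPM, a log2 ratio of 0.97 (0.51 to 1.43). The same held in macrophages, at 14.4 and 33.9 CPM, a log2 ratio of 1.24 (1.02 to 1.46). The part of Chchd2 reads in the Phkg1 values of any class was not tested.

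The regulatory subunits differed less, and in both directions. Phka1, the alpha subunit known from muscle, was at 39.8 CPM (31.5 to 49.6) in adipocytes of HF-PBS and 65.5 CPM (60.6 to 70.8) in those of HF-HHT, a log2 ratio of 0.72 (0.38 to 1.07). Phka2, the alpha subunit known from liver, was at 313 CPM (289 to 339) and 227 CPM (218 to 237), a log2 ratio of -0.46 (-0.59 to -0.33). The alpha subunit genes, both on the X chromosome, differed in opposite directions. Phkb, the beta subunit shared by all forms of the kinase, was at 148 CPM (132 to 166) and 223 CPM (214 to 233), a log2 ratio of 0.59 (0.42 to 0.77) that lay just past the limit of 1.5-fold. The values of Phka2 were sensitive to how nuclei were weighted, as its log2 ratio was 0.03 once each nucleus had been thinned to 2000 UMIs.

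Among the enzymes of synthesis, Gys1, the synthase of muscle and most other tissues, was at 45.4 CPM (36.5 to 55.8) in HF-PBS adipocytes and 115 CPM (108 to 122) in HF-HHT adipocytes. The difference was 2.53-fold, a log2 ratio of 1.34 (1.03 to 1.67). Gys2, the synthase known from liver, was sparse, with 19 UMIs in 16 HF-PBS nuclei and 39 UMIs in 31 HF-HHT nuclei, or 9.58 CPM (5.77 to 15) and 3.93 CPM (2.79 to 5.37). Its intervals did not overlap, and its log2 ratio was -1.29 (-2.11 to -0.41). Gbe1 was at 375 CPM (349 to 403) in adipocytes of HF-PBS and 196 CPM (188 to 205) in those of HF-HHT, a log2 ratio of -0.93 (-1.06 to -0.81). The synthase Gys1 and the branching enzyme thus differed in opposite directions between the libraries.

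**Figure D1:**
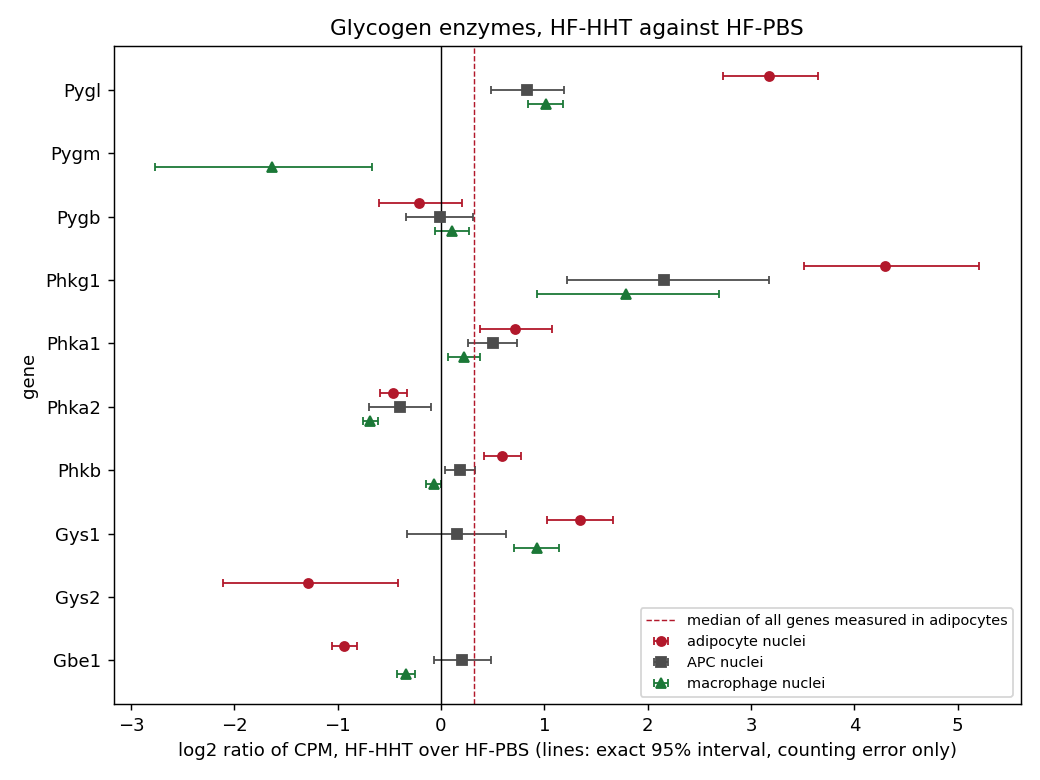
Log2 ratio of CPM, HF-HHT over HF-PBS (x axis), for each gene (y axis) with at least 20 UMIs over both libraries, in adipocyte (circles), APC (squares) and macrophage nuclei (triangles); lines are exact 95% intervals of counting error, and the dashed line is the median of all genes measured in adipocytes (0.32). In adipocytes Phkg1 (4.30) and Pygl (3.17) lie farthest to the right and Gys2 (-1.29) farthest to the left.

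Levels in both libraries were also compared as the share of adipocyte nuclei with a UMI after each nucleus had been thinned to 5000 UMIs, which left 141 nuclei of HF-PBS and 750 of HF-HHT and set 12 and 93 shallower nuclei aside. Pygl was found in 9.22% of the HF-PBS nuclei (5.0 to 15.3) and 57.2% of the HF-HHT nuclei (53.6 to 60.8), against 17.6% and 76.0% before thinning. Phkg1 was found in 1 HF-PBS nucleus, or 0.709%, and in 38.9% of the HF-HHT nuclei (35.4 to 42.5), against 7.19% and 56.2% before thinning. With 13 UMIs in all, the share of Phkg1 in HF-PBS moved with the draw, and thinning to 2000 UMIs kept it in 5 of 152 nuclei.

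Gys1 was found in 19.9% of the thinned HF-PBS nuclei (13.6 to 27.4) and 39.7% of the HF-HHT nuclei (36.2 to 43.3), and Gbe1 in 70.9% (62.7 to 78.3) and 51.7% (48.1 to 55.4). The intervals of Pygl, Phkg1, Phka1, Phkb, Gys1 and Gbe1 did not overlap between the libraries. Those of Phka2, with 63.8% (55.3 to 71.7) and 58.8% (55.2 to 62.3), overlapped, as did those of Pygb and Gys2. How many of all genes had intervals that lay apart was not counted. Since adipocyte values had also chosen the genes, nothing about the members was read from these intervals.

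T and NK cells, of which neither Pygl nor Phkg1 is a known marker, served as a background. Thinned to 2000 UMIs, 0.373% of them held a UMI of Pygl in HF-PBS and 2.31% in HF-HHT, against 2.63% and 29.9% of adipocytes at the same depth. For Phkg1 the shares were 0.373% and 1.73% of T and NK cells and 3.29% and 20.2% of adipocytes. Median depths before thinning were 1748 and 1547 UMIs in T and NK cells. In HF-PBS the intervals of T and NK cells (up to 2.06% for both genes) overlapped with those of adipocytes (from 0.722% for Pygl and 1.08% for Phkg1). In HF-HHT the adipocytes lay above the background for both genes. Each share of 0.373% was 1 nucleus. Thinning set aside 394 and 368 shallower T and NK nuclei and left 268 and 173.

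**Figure D2:**
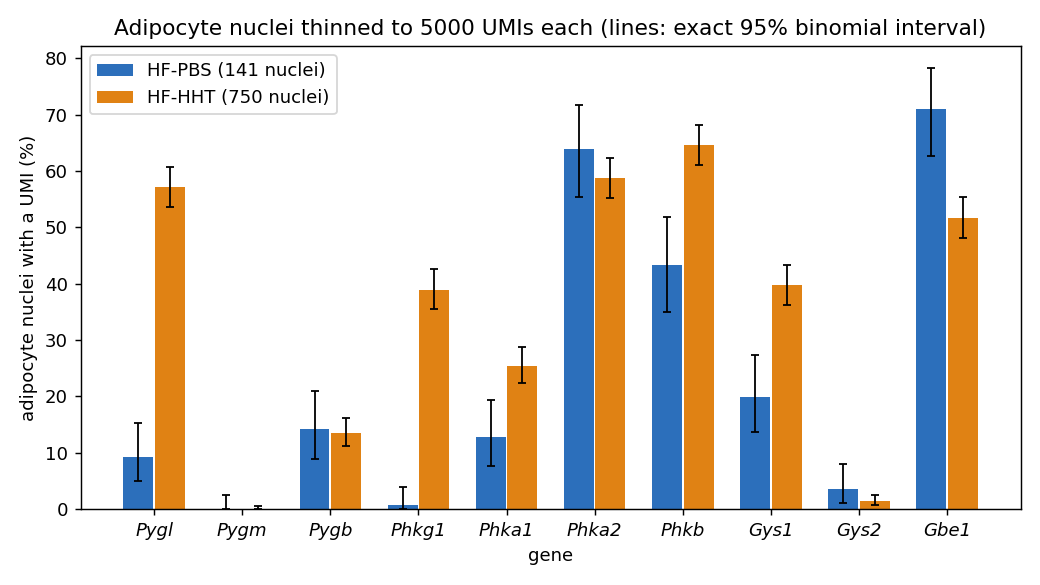
Share of adipocyte nuclei with a UMI of each gene (y axis, percent) after thinning to 5000 UMIs per nucleus, in HF-PBS (141 nuclei) and HF-HHT (750 nuclei); lines are exact 95% binomial intervals. Pygl, Phkg1, Gys1 and Phkb were found in a larger share of HF-HHT nuclei, and Gbe1 in a smaller one (51.7% against 70.9%).

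Free RNA differed in the same direction. Pygl was at 30.2 CPM in the free RNA of HF-PBS and 98.7 CPM in that of HF-HHT, and Phkg1 at 4.01 and 30.3 CPM. Both were below the levels of HF-HHT adipocytes. In HF-PBS, Pygl of free RNA lay above the adipocyte level of 21.2 CPM (15.3 to 28.6). Phkg1 of free RNA in HF-PBS lay within the adipocyte interval (3.49 to 11.2). With the estimated free RNA subtracted, the log2 ratios in adipocytes were 3.23 for Pygl and 4.31 for Phkg1. Markers of other cells in the adipocyte class also differed. The summed level of the 12 macrophage markers was 2082 CPM without HHT and 1200 CPM with it, none was at 0, and most of the sum came from Mertk (1347 and 126 CPM) and from Lpl, which fat cells also express (478 and 1028 CPM). The 9 erythroid markers summed to 7.56 and 156 CPM. Their part in the adipocyte values of the glycogen genes was not tested.

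At a finer resolution the adipocytes fell into 2 clusters, one with 127 HF-PBS and 606 HF-HHT nuclei (cluster 5) and one led by genes such as Adrb3, the adrenergic receptor of fat cells, and Acvr1c, with 26 and 236 nuclei (cluster 15). The glycogen genes had been kept out of the features used for clustering. In cluster 5, the level of Pygl was 21.7 CPM without HHT and 181 CPM with it, and it was 17.4 and 226 CPM in cluster 15. Phkg1 was at 5.70 and 118 CPM in cluster 5, and at 13.1 and 163 CPM in cluster 15. Both genes were higher in HF-HHT in each cluster, with log2 ratios of 3.06 (2.60 to 3.57) and 3.70 (2.33 to 5.58) for Pygl and of 4.38 (3.49 to 5.44) and 3.64 (2.08 to 5.93) for Phkg1.

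In cluster 5, Gbe1 was at 390 CPM without HHT and 184 CPM with it, a log2 ratio of -1.08 (-1.22 to -0.95). It was at 265 and 240 CPM in cluster 15, a log2 ratio of -0.15 (-0.53 to 0.26). Phka1 was at 32.5 and 62.8 CPM in cluster 5 and at 95.7 and 75.2 CPM in cluster 15, where its log2 ratio was -0.35 (-0.99 to 0.36). Phka2 likewise had log2 ratios of -0.60 (-0.74 to -0.46) and 0.30 (-0.11 to 0.74). The intervals of Gbe1, Phka1 and Phka2 thus held 0 in cluster 15 and not in cluster 5. With 26 HF-PBS nuclei in cluster 15, its HF-PBS values rest on 61 UMIs for Gbe1, 51 for Phka2 and 22 for Phka1.

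**Figure D3:**
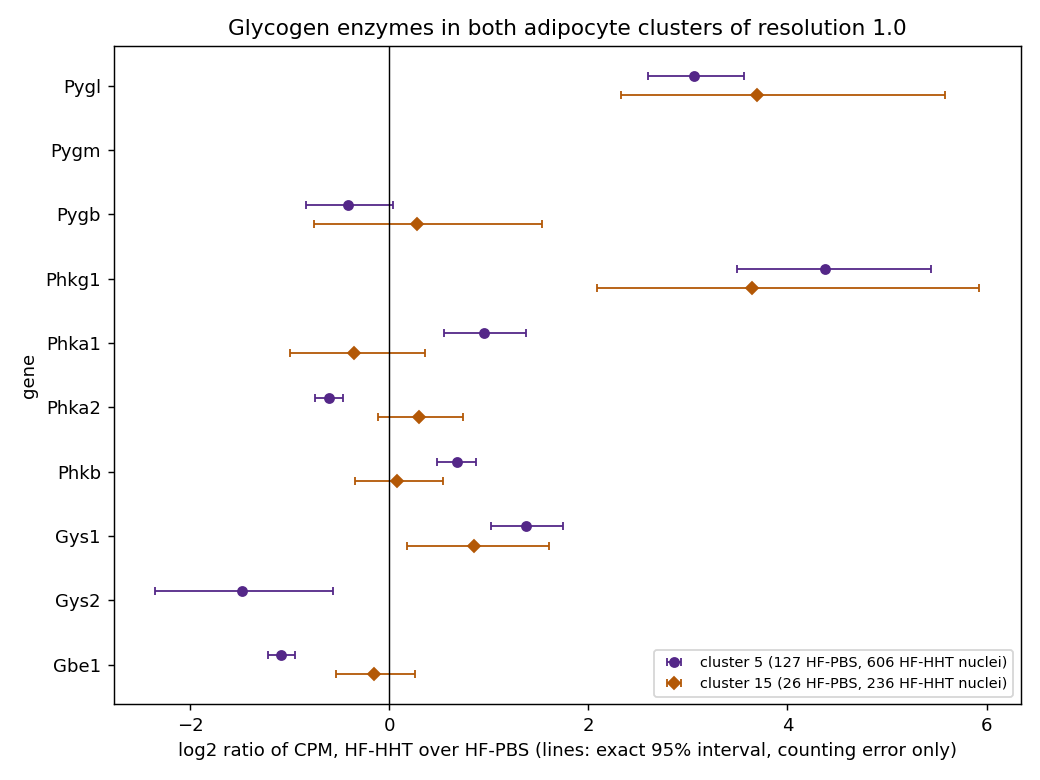
Log2 ratio of CPM, HF-HHT over HF-PBS (x axis), of each gene (y axis) in the adipocyte clusters 5 (circles) and 15 (diamonds) of resolution 1.0, with exact 95% intervals of counting error. Pygl, Phkg1 and Gys1 lie to the right of 0 in both clusters, while Gbe1 lies farther to the left of it in cluster 5 (-1.08) than in cluster 15 (-0.15) and Phka2 is on opposite sides of it.

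Across the other cell types, the adipocyte was not always the cell with the highest level. In HF-PBS, Pygl was at 27.5 CPM in macrophages (25.4 to 29.8), 26.9 CPM in APCs, the adipocyte precursor cells (22.6 to 31.9), and 21.2 CPM in adipocytes, neighbours whose intervals overlapped, and at 3.47 CPM in B cells (1.13 to 8.09), the lowest class. In HF-HHT, adipocytes at 191 CPM were followed by macrophages at 55.5 CPM (51.2 to 60.1), APCs at 48.1 CPM (40.3 to 57.0) and multiciliated epithelium at 47.4 CPM (33.7 to 64.9). The first place of adipocytes for Pygl was thus seen in HF-HHT and not in HF-PBS.

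Phkg1 was at 178 CPM (150 to 209) in the multiciliated epithelium of HF-HHT, with 146 UMIs, above the 129 CPM of adipocytes, and at 14.9 CPM or less in each of the other 11 classes of that library. In the multiciliated nuclei its neighbours Chchd2 (93.7 CPM) and Zbed5 (60.8 CPM) were also higher than in adipocytes, and Sumf2 (10.9 CPM) was lower. In HF-PBS, 20 UMIs gave the erythroid class 327 CPM, but 18 of them lay in 1 nucleus, and the other classes were at 6.55 CPM or less. Over all nuclei Phkg1 had 82 UMIs without HHT and 1531 with it.

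Gys2 was close to an adipocyte gene in these libraries. Adipocytes held 19 of its 25 UMIs in HF-PBS and 39 of its 42 in HF-HHT, and no other class had more than 3. Because adipocyte nuclei were more numerous in HF-HHT, Gys2 summed over all nuclei was higher there, at 1.24 CPM against 0.696 CPM, although it was lower within adipocytes. Gys1 was at 115 CPM in HF-HHT adipocytes, the highest class, followed by multiciliated epithelium at 68.1 CPM (51.5 to 88.5). In HF-PBS, perivascular cells at 55.6 CPM (24.0 to 110) and adipocytes at 45.4 CPM headed the order, with intervals that overlapped.

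The value of Gbe1 was highest in adipocytes in both libraries. In HF-PBS they were followed by macrophages at 179 CPM (173 to 184) and T and NK cells at 140 CPM (121 to 161), and in HF-HHT by T and NK cells at 153 CPM (130 to 180) and perivascular cells at 145 CPM (75.0 to 253). The intervals of the last 2 overlapped, and that of perivascular cells also held the adipocyte level of 196 CPM. Gbe1 was lowest in APCs in HF-PBS, at 57.0 CPM (50.7 to 64.0), and in the erythroid class in HF-HHT, at 35.4 CPM.

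Among the kinase subunits, Phka2 had the same leading classes in both libraries, dividing nuclei at 340 CPM (315 to 365) and 262 CPM (237 to 289), adipocytes at 313 and 227 CPM and macrophages at 290 CPM (283 to 297) and 180 CPM (172 to 188). The intervals of adipocytes overlapped with those of both neighbours in HF-PBS, and barely with those of dividing nuclei alone in HF-HHT. Phka1 ranged from 18.8 CPM in T and NK cells to 82.3 CPM in endothelial cells of HF-PBS and from 23.8 CPM in T and NK cells to 145 CPM in perivascular cells of HF-HHT. Phkb was measured in every class, from 81.8 CPM in the erythroid class to 276 CPM in monocytes and dendritic cells of HF-PBS and from 91.3 CPM in the erythroid class to 416 CPM in B cells of HF-HHT.

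Pygb lay between 31.2 CPM in endothelial cells and 62.9 CPM in dividing nuclei of HF-PBS, and adipocytes at 33.3 CPM were next to last. In HF-HHT it ranged more widely, from 14.9 CPM in the erythroid class (8 UMIs) to 128 CPM in multiciliated epithelium (104 to 155) and 133 CPM in perivascular cells (11 UMIs), with adipocytes again next to last. Pygm stayed at 24.2 CPM or less in every class, and no class held more than 62 of its UMIs. A marker list of skeletal muscle, the tissue Pygm is known from, summed to 1.51 and 2.62 CPM in adipocytes, with 5 of its 8 genes at 0.

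**Figure D4:**
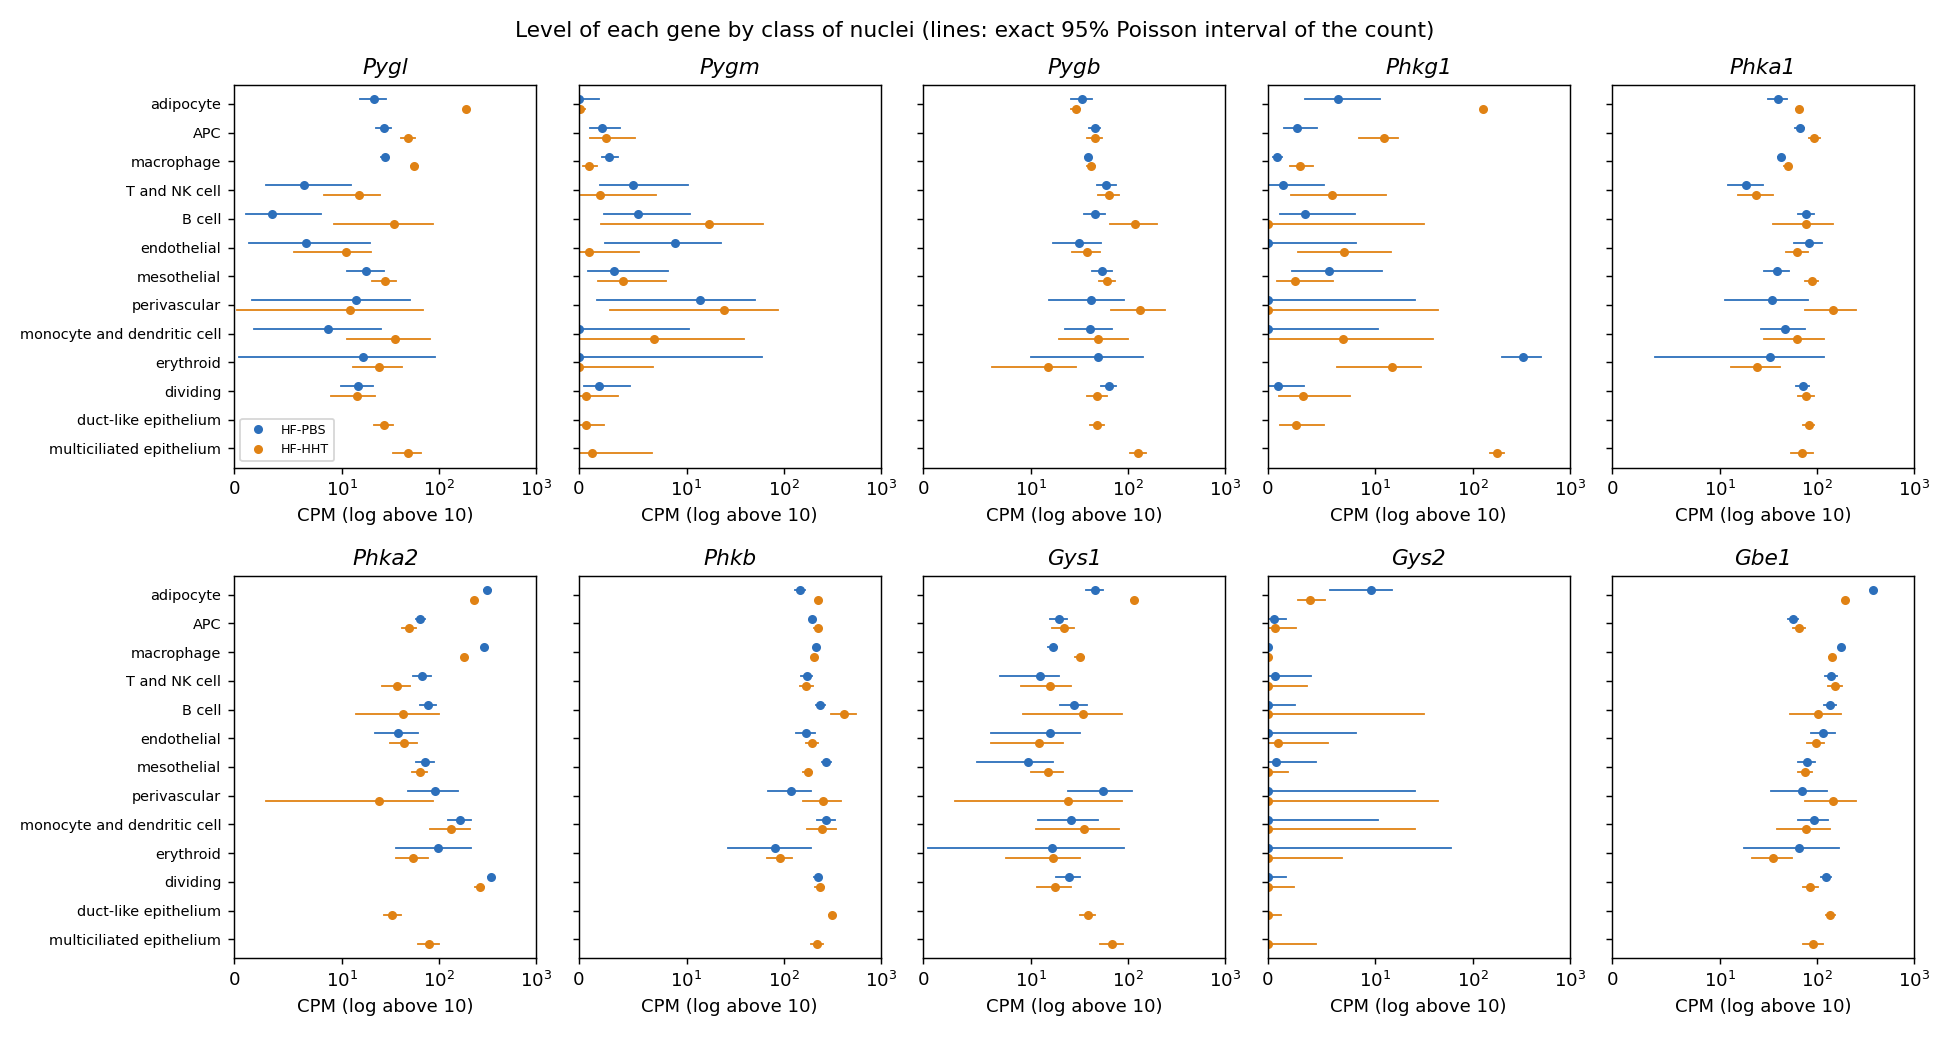
Level of each gene (x axis, CPM, linear to 10 and logarithmic above) in each class of nuclei (y axis) in HF-PBS and HF-HHT; lines are exact 95% Poisson intervals of the count, and duct-like and multiciliated epithelium have HF-HHT values alone. Pygl and Phkg1 of HF-HHT adipocytes stand at 191 and 129 CPM, and Gys2 is near 0 outside adipocytes.

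In APCs, 2 of 8 measured members were at least 1.5-fold higher in HF-HHT, where 22.9% of all 12174 genes measured were, and 0 were at least 1.5-fold lower, where 8.19% were. The higher ones were again Pygl, at 26.9 CPM and 48.1 CPM with a log2 ratio of 0.84 (0.48 to 1.19), and Phkg1, at 2.75 CPM and 12.3 CPM with a log2 ratio of 2.16 (1.22 to 3.17). Phkg1 rested on 14 UMIs without HHT and 34 with it, and free RNA, at most 12.3% and 7.82% of the UMIs of APCs, held Phkg1 at 4.01 and 30.3 CPM. Gys1, with 19.5 and 21.7 CPM, Gbe1, with 57.0 and 65.8 CPM, and Pygb, with 45.6 and 45.2 CPM, had intervals that overlapped in these cells. Phka1 was at 66.5 and 94.1 CPM and Phkb at 198 and 225 CPM, while Pygm had 11 and 7 UMIs and Gys2 3 and 2. The share of 2 in 8 lay near that of all genes. With median-of-ratios size factors 2 members were higher and 1, Phka2, was lower, but the share of all genes was not counted for that scaling. Phka2 was at 64.1 and 48.8 CPM in APCs, and its log2 ratio of -0.39 turned to 0.20 with free RNA subtracted.

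In macrophages, 3 of 9 measured members were at least 1.5-fold higher in HF-HHT, where 25.8% of all 14417 genes measured were, and 2 were at least 1.5-fold lower, where 8.49% were. Pygl was at 27.5 and 55.5 CPM, a log2 ratio of 1.01 (0.85 to 1.18). Gys1 was at 16.7 CPM (15 to 18.5) and 31.7 CPM (28.5 to 35.2), a log2 ratio of 0.93 (0.71 to 1.14). Phkg1, the other higher member, was at 0.877 and 3.03 CPM, below its level in free RNA. Its log2 ratio of 1.79, on 19 and 33 UMIs, was 0.99 with free RNA subtracted and 0.79 with doublets kept. Phka2 was lower, at 290 and 180 CPM with a log2 ratio of -0.68 (-0.76 to -0.61), and Pygm was lower on 62 and 10 UMIs, with a log2 ratio of -1.64 (-2.77 to -0.67). Gbe1, at 179 and 141 CPM, Pygb, at 38.7 and 41.6 CPM, Phka1, at 42.7 and 49.8 CPM, and Phkb, at 217 and 207 CPM, differed by less than 1.5-fold, and Gys2 had 1 and 0 UMIs.

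The libraries differed in which macrophages they held, and the part of this in the values of the class was not tested. Macrophages were not uniform. At resolution 1.0 they fell mainly into 7 clusters, and the HF-HHT library held more nuclei than HF-PBS in cluster 8, led by genes such as Ccr2, a chemokine receptor of monocytes (217 and 400 nuclei), and in cluster 9, led by Marco, Arg1, Nos2 and Saa3 (148 and 385 nuclei). The other large clusters went the opposite way, such as cluster 2, led by Mmp12 and Gpnmb, with 834 and 320 nuclei. Clusters 8 and 9 met no marker list at this resolution, and their nuclei count as macrophages by the coarser clusters. They are thus left out of the macrophage class at resolution 1.0, where 1 member was higher and 1 lower, with no share of all genes counted. They held the highest levels of Pygl among the HF-HHT nuclei of the macrophage class.

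Pygl in cluster 8 was at 31.7 CPM (21.2 to 45.5) in HF-PBS and 101 CPM (86.1 to 119) in HF-HHT, a log2 ratio of 1.68 (1.10 to 2.30). In cluster 9 it was at 198 CPM (170 to 229) and 113 CPM (99.2 to 128), a log2 ratio of -0.81 (-1.09 to -0.53). The direction was thus opposite in these clusters, and in clusters 0, 1 and 2 the log2 ratios were 0.63 (0.25 to 1.01), 0.38 (-0.09 to 0.83) and 0.63 (-0.03 to 1.26). Gbe1 stood out in cluster 9 of HF-PBS, at 602 CPM (553 to 654) against 170 CPM (153 to 188) in HF-HHT, a log2 ratio of -1.82 (-2.01 to -1.63). Gbe1 was also lower in HF-HHT in cluster 14, led by Cd209b and Cd163, at 201 and 119 CPM with a log2 ratio of -0.76 (-1.13 to -0.39), and its ratio was -0.46 (-1.45 to 0.50) in the few nuclei of cluster 17. In clusters 0, 1, 2 and 8 the log2 ratio of Gbe1 lay between -0.13 and 0.20.

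Gys1 was higher in HF-HHT in clusters 2, 8 and 9, with log2 ratios of 0.96 (0.41 to 1.5), 1.92 (1.04 to 2.94) and 1.54 (0.77 to 2.39). In clusters 0 and 1 its intervals held 0. Phka2 had a log2 ratio of -0.67 (-0.84 to -0.50) in cluster 0 and of -0.04 (-0.18 to 0.09) in cluster 2, where the interval held 0. In the coarser macrophage cluster led by genes such as Mmp12 and Gpnmb, the log2 ratio of Phka2 was -0.17 (-0.28 to -0.06). Pygl of cluster 9 in HF-PBS, at 198 CPM, lay above the 21.2 CPM of the adipocytes of the same library.

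**Figure D5:**
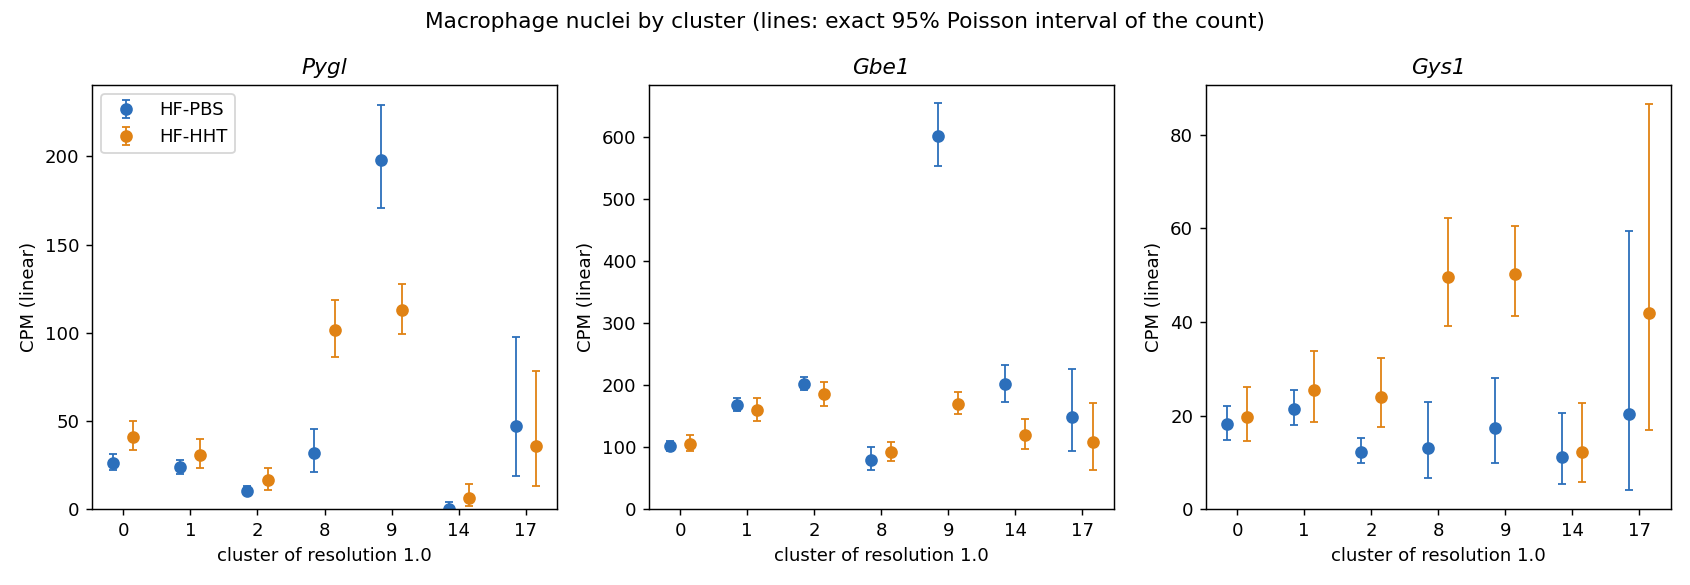
CPM (y axis, linear) of Pygl, Gbe1 and Gys1 in the macrophage clusters of resolution 1.0 (x axis) in HF-PBS and HF-HHT, with exact 95% Poisson intervals of the count. Cluster 9 of HF-PBS holds the highest Pygl (198 CPM) and Gbe1 (602 CPM), and Gys1 of clusters 8 and 9 is at 49.7 and 50.3 CPM in HF-HHT.

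Other genes that handle glycogen were followed as a second list of 26. In adipocytes 22 were measured, 8 were at least 1.5-fold higher in HF-HHT (35.5% of all genes) and 1 was at least 1.5-fold lower (12.5% of all genes), with a median log2 ratio of 0.30, close to the 0.32 of all genes. The highest were Ppp1r3e, at 1.01 and 3.82 CPM with a log2 ratio of 1.92 (-0.03 to 5.02), and Ppp1r3f, at 2.52 and 7.95 CPM with a log2 ratio of 1.66 (0.38 to 3.32), both subunits that bring protein phosphatase 1 to glycogen. The lowest were Ppp1r3c, another of these subunits, with 7 and 17 UMIs and a log2 ratio of -1.04 (-2.39 to 0.47), and Pgm2, a phosphoglucomutase, at 4.54 and 3.93 CPM. Gyg, the primer on which new glycogen is started, was at 15.6 and 24.6 CPM, a log2 ratio of 0.65 (0.11 to 1.24).

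Genes of glucose 6-phosphate, the substrate that glycogen shares with glycolysis, were measured for 10 of 13, with 3 at least 1.5-fold higher, 1 lower and a median log2 ratio of 0.16. These counts lay below the 35.5% and 12.5% of all genes. Slc37a4, the glucose 6-phosphate carrier of the endoplasmic reticulum (2 and 37 UMIs), and Slc2a1, a glucose transporter (3 and 48 UMIs), had the highest ratios. Hk3, a hexokinase (9 and 23 UMIs), and Gpi1, which interconverts glucose and fructose 6-phosphate (79.1 and 54.6 CPM), had the lowest. The log2 intervals of Slc37a4 (-0.07 to 4.98) and Hk3 (-2.14 to 0.33) held 0, and those of Slc2a1 and Gpi1 did not. Of the 6 subunits of the cAMP-dependent kinase that acts on phosphorylase kinase, 2 were at least 1.5-fold higher, near the 35.5% of all genes, and 0 lower. The highest were Prkar1b, at 2.52 and 5.03 CPM, and Prkar2b, the main regulatory subunit of fat, at 1563 and 2782 CPM. Prkar1b rested on 5 and 50 UMIs, and its log2 interval (-0.32 to 2.68) held 0. That of Prkar2b was 0.78 to 0.89. The lowest were Prkar1a, at 49.4 and 33.5 CPM, and Prkar2a, at 48.4 and 53.0 CPM.

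The genes whose levels across classes and libraries were most like those of Pygl, Phkg1 and Gys2 were sought by Pearson's r of log2(CPM + 1) over 24 columns, the classes of both libraries, among 9418 genes. For Pygl they were Ppp1r9a (r = 0.75), Abhd5, the co-activator of adipose triglyceride lipase (0.73), and Azin2 (0.71). For Phkg1 they were Got1l1 (0.86), Tmem17, a protein of the ciliary base (0.80), and Prtn3 (0.80), and for Gys2 Disp2 (0.87), Adra1d, an adrenergic receptor (0.85), and Bckdhb, a subunit of the enzyme that breaks down branched-chain keto acids (0.85). These values describe 24 columns that share 2 libraries and differ in depth. For Phkg1 the highest column was the erythroid class of HF-PBS at 327 CPM, where 18 of 20 UMIs lay in 1 nucleus.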

How the data were processed

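The authors deposited counts, whole UMIs per gene for every barcode, made with Cell Ranger 5.0.0 on mm10 (per the labels and the methods), with no normalization and before nuclei were called. Whether intronic reads were included is stated in none of the sources used here.

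Nuclei were called against free RNA (barcodes ranked 45000 to 90000; at least 500 UMIs; false discovery rate 0.01), which gave 7745 HF-PBS and 7607 HF-HHT barcodes. Scrublet (scanpy 1.11.5) removed 480 and 463 likely doublets. As in the study, nuclei with more than 400 genes and less than 0.5% mitochondrial UMIs were kept, and those past the 95th percentile of genes or of UMIs were left out. Integration of both libraries used Seurat 5.3.0 (R 4.3.3) without the glycogen lists among the features, and 14 clusters were named by markers. Markers were ranked against the other clusters weighted equally, a rule changed after 1 macrophage cluster had stayed without a name; keeping the first rule (cluster 0 alone) is one of the alternatives. Names per nucleus from the study were not used here.

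Sums of UMIs per class and library were scaled to CPM (Python 3.11.15, pandas 2.3.3, numpy 2.4.6, scipy 1.17.1). A gene with at least 20 counts over both libraries was called measured. Ratios carry the exact conditional 95% interval of 2 Poisson counts and shares the exact binomial interval. With 1 library per group no test was made, and differences are described by a fold of 1.5 beside the share of all genes past it. TMM factors came from edgeR 4.0.16. The calling and the intervals were tested on simulated data. Thinning depths were set after class depths had been seen.

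The members, the other gene lists and the marker lists were chosen with earlier results of these data known, and the epithelial marker lists were taken from the leading genes of these clusters. Each member is given in adipocytes, APCs and macrophages, and in other classes by its highest or lowest levels; of each other list the 2 highest and 2 lowest ratios in adipocytes, beside Phkg2, Gyg and Ppp1r3c; 1 other gene of this rule is not reported here. Positions are those of GENCODE vM21 on GRCm38, which held 99.8% of the gene identifiers, and promoters those of RefSeq on GRCm38.p6, matched by symbol for 9 members.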

Additional observations from a re-analysis of the deposited data

How the results depend on the processing

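Pygl and Phkg1 were higher in HF-HHT adipocytes under every alternative run, with log2 ratios of 2.59 to 3.71 and 3.03 to 4.53, as was Gys1 (0.85 to 1.53), and Gbe1 (-1.16 to -0.15) was lower, with an interval that held 0 in adipocyte cluster 15. Gys2 was lower (-1.59 to -0.74) wherever a ratio could be had; in cluster 15 it had 0 UMIs without HHT and 9 with it. The count of members at least 1.5-fold higher in adipocytes was 3 instead of 5 with TMM factors, median-of-ratios size factors, a fold of 2, nuclei of 6000 to 16000 UMIs, and in adipocyte cluster 15 alone. The count of lower ones was 1 instead of 2 with thinned nuclei and a fold of 2, and 0 in cluster 15. In APCs the higher count was 1 instead of 2 with thinned nuclei and a fold of 2, and the lower count was 1 instead of 0 with size factors by the median of ratios, which moved log2 ratios there down by 0.22. In macrophages at resolution 1.0 and in macrophage cluster 1 alone, 1 member was higher and 1 lower, instead of 3 and 2. The lower count in macrophages was also 1 with thinned nuclei and a fold of 2. The share of all genes past the fold was counted for the main setting alone, so nothing about the members was read from these counts. Phka2 in APCs turned from -0.39 to 0.20 with free RNA subtracted, and Phkg1 in macrophages ranged from 0.79 to 2.20. Pygm in macrophages turned to 0.20 with thinned nuclei (23 UMIs) and Phka1 in adipocytes to -0.35 in cluster 15. The window of UMIs and the single clusters were chosen after seeing the data, and the causes were not tested. No replicate could be left out, and no paired analysis was possible because each group is 1 library. Depth limits Pygm, Gys2 outside adipocytes and HF-PBS Phkg1, each on few UMIs.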

Other observations

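Single HF-HHT adipocytes were also read for whether the higher genes were found together. Among 750 adipocyte nuclei thinned to 5000 UMIs, Pygl was found in 429 and Phkg1 in 292, and both were found in 174, against 167 from the product of their shares. Phkg1 was found in 40.6% of nuclei with Pygl and in 36.8% of those without it. Pygl and Gys1 were found together in 168 nuclei, against 170 from the product of their shares, and Phkg1 and Gys1 in 110 against 116. Gbe1 was found in 51.7% of nuclei with Pygl and in 51.7% of those without it. With few UMIs per gene and nucleus, these weak differences are no finding.

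Within pairs of genes for the same subunit, the makeup of the UMIs differed between adipocytes of the libraries. Pygl made up 38.9% of the UMIs of Pygl and Pygb in HF-PBS (29.7 to 48.7) and 86.9% in HF-HHT (85.4 to 88.3). Phkg1 made up 23.6% of those of Phkg1 and Phkg2 in HF-PBS (13.2 to 37.0) and 87.4% in HF-HHT (85.6 to 89.1). Phka1 made up 11.3% of those of Phka1 and Phka2 (9.04 to 13.9) and 22.4% (20.9 to 24.0), and Gys1 82.6% of those of Gys1 and Gys2 (74.1 to 89.2) and 96.7% (95.5 to 97.6). In macrophages the share of Phka1 was 12.8% and 21.6%, close to that of adipocytes, while in APCs it was 50.9% and 65.8%. These shares are of UMIs counted without regard to transcript length and do not give the amounts of the proteins.

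In the genome, Gys1 overlaps Ruvbl2, on the opposite strand, and the level of Ruvbl2 in adipocytes was 3.53 CPM without HHT and 5.94 CPM with it. F730035M05Rik, a lincRNA on the strand opposite to Pygl, was at 1.01 CPM (2 UMIs) and 8.15 CPM (81 UMIs) in the same nuclei. Whether reads were shared between these neighbours and the glycogen genes was not tested.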
